A study of Mus musculus with 10 samples.

Results

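The genes described are 10 small leucine-rich proteoglycan genes and close relatives, osteoglycin (Ogn), osteomodulin (Omd), asporin (Aspn), Ecm2, decorin (Dcn), lumican (Lum), biglycan (Bgn), fibromodulin (Fmod), Prelp and podocan (Podn). They were taken by name from a table of 40503 genes, of which 17038 passed a filter on low values, all 10 members among them. The set was chosen by the RPKM values of knockout (KO) against wild-type (WT) libraries, in which Ogn was among the largest rises, so the KO against WT values of the members are given as a description, with no p-value.

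The study sequenced polyA RNA of the gonadal fat depot (white adipose tissue next to the reproductive organs) from female C57BL/6 mice 12 weeks old. The KO libraries are from 5 mice with the genotype Med19-iAKO, an adipose-specific and tamoxifen-inducible deletion of Med19, and the WT libraries are from 5 control mice. The labels describe tamoxifen for the Med19-iAKO mice, 100 mg/kg on 5 days, and collection of the fat 14 days after it. The same treatment text stands on the control samples but names the Med19-iAKO mice alone, so whether the controls were injected is not stated, nor is the promoter that drives the inducible deletion. Each library carries its own animal number and is named by group and number (KO 1, WT 86), and nothing else says how the animals were bred or housed.

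Small leucine-rich proteoglycans are secreted proteins built from leucine-rich repeats, many of which carry chondroitin, dermatan or keratan sulfate chains. They bind collagen fibrils, set fibril diameter and spacing, and hold growth factors such as TGF-beta in the matrix. In adipose tissue they are made mostly by fibroblasts and progenitor cells rather than by fat-laden adipocytes.

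Med19, which encodes a subunit of the Mediator complex, averaged 6.79 ± 0.85 RPKM in KO and 6.70 ± 0.89 RPKM in WT libraries (SD, n = 5 per group; 2-sided exact permutation p = 0.881, where 0.0079 is the smallest p that 5 against 5 libraries allow). RPKM are reads scaled to the length of the gene and to the size of the library. The level of the targeted gene thus did not check the labels, and every direction here rests on them; the fitted log2 difference of Med19 changed sign under other scalings. Between 14444257 and 20183632 reads per library fell on genes, by the whole reads worked back out of the RPKM. A gene is called where limma, a linear model fitted to log2(RPKM + 0.5) of all genes, gave a Benjamini-Hochberg adjusted p under 0.05. The voom fit is the same model on the recovered reads. Of all 17038 tested genes, 4.00% were called higher and 1.95% lower in KO by limma. Markers of adipocytes were lower in the KO-labelled libraries, with 11 of 12 called, all lower, and their summed level was 5715 to 6004 RPKM in KO against 13960 to 20148 RPKM in WT. Cfd, the most abundant of them, was at 1976 ± 289 RPKM in KO, against 8815 ± 1500 RPKM in WT libraries (SD, n = 5 each), and Fabp4 at 2694 ± 218 RPKM in KO, against 4639 ± 915 RPKM in WT. Of 18 fibroblast and adipose progenitor markers, 3 were called higher (Cd55, Dpt and Cd24a; 1 without KO 1 or WT 86) and 1 lower (Gsn, lost in 8 of the 10 fits without 1 library, all but those without KO 4 or KO 17), and at an unadjusted p under 0.05 they were 5 higher and 1 lower. The share of all genes at that unadjusted cut is not given, so nothing is read from such counts here or below. The median log2 difference over the 18 was 0.20, against 0.09 over all tested genes. Their summed level was 1248 to 1697 RPKM in KO against 1523 to 1877 RPKM in WT, but Gsn, which encodes an actin-severing protein, was the most abundant of them, at 493 to 838 RPKM in KO against 881 to 1200.4 RPKM in WT. The other 17 summed to 754 to 859 RPKM in KO against 594 to 677 RPKM in WT. That sum leaves out the marker called lower and keeps those called higher. Among these, Dpt was at 176 ± 28 RPKM in KO against 88.4 ± 10.7 RPKM in WT (SD, n = 5 each). The direction of the summed level thus depends on which markers are kept, and nothing is read from it. In bulk tissue, fewer cells of a type and less RNA per cell cannot be told apart. Of 12 mesothelial markers, led by Igfbp6 and Upk3b, limma called 0 in either direction, with 4 higher at an unadjusted p under 0.05 and 1 called higher in the voom fit. Among 12 smooth muscle and pericyte markers, led by Acta2 and Tagln, 2 were called lower. Of 10 endothelial markers, led by Cdh5 and Pecam1, 1 was called lower, and of 10 macrophage markers, led by Lyz2 and C1qb, 1 was called higher (3 in the voom fit). Of the markers of ovary, oviduct and uterus (Star, Esr1), 7 of 12 passed the filter. So did 3 of 8 of skeletal muscle (Acta1, Tnnt3) and 3 of 10 of cartilage, bone and tendon (Chad, Scx). Limma and the voom fit called 0 of those tested in either direction, and 1, 0 and 0 were at an unadjusted p under 0.05. The muscle markers were imprecise (log2 difference of Acta1 -1.92, SE 0.96, and of Tnnt3 0.84, SE 0.69), so 0 called does not show equal levels. The summed skeletal muscle markers split the KO libraries, at 90.5 RPKM in KO 1 and 60.7 RPKM in KO 4, above every WT library. KO 7, 8 and 17 were at 2.60 to 5.39 RPKM, below every WT library (17.5 to 43.1 RPKM). The WT sum was mostly Acta1, at 26.0 ± 10.3 RPKM in WT and 16.1 ± 20.1 RPKM in KO. Tnnt3 was at 1.63 ± 1.47 RPKM in WT and 4.69 ± 5.60 RPKM in KO. No marker was listed at 0 in every library, and the part of these cell types in the results below was not tested.

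Ogn, Omd, Aspn and Ecm2 are neighbours on mouse chromosome 13, in the order Ecm2, Aspn, Omd, Ogn. In GENCODE M21 all 4 lie inside Cenpp, which runs on the opposite strand, and no source used here says whether the counting used strand. The stretch of 250 bases before the annotated start of each of these genes is shown because the neighbours share a locus while Ogn alone of them was called, and that of Prelp because it differed the other way. Sequences are from RefSeq on GRCm38.p6, 5′ to 3′ on the gene's strand, in lower case with motif matches in capitals. They lie at chr13:49607765-49608014 (+) for Ogn, chr13:49582212-49582461 (+) for Omd, chr13:49544193-49544442 (+) for Aspn, chr13:49504560-49504809 (+) for Ecm2 and chr1:133921402-133921651 (-) for Prelp.
Ogn: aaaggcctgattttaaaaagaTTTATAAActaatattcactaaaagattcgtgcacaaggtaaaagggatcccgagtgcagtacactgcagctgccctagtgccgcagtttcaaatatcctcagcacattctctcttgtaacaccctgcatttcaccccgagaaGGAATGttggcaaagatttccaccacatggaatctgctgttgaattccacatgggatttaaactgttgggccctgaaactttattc
Omd: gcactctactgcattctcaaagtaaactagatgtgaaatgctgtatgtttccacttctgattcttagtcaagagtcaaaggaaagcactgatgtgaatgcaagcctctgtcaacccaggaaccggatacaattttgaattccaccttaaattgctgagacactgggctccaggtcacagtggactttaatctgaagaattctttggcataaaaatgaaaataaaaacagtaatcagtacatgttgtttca
Aspn: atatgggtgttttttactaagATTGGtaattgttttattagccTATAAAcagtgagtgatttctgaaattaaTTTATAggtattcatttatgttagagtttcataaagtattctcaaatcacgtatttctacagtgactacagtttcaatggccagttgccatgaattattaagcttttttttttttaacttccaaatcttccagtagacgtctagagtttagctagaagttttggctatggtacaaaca
Ecm2: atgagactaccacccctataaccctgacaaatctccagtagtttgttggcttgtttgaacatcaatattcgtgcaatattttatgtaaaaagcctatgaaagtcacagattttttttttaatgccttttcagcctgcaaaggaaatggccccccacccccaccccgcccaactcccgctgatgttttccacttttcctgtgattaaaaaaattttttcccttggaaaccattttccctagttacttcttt
Prelp: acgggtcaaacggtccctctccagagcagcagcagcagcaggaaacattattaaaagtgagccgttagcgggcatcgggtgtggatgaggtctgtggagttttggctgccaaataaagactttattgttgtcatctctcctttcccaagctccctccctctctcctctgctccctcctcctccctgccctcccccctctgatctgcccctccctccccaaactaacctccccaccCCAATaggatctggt

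The capitals mark TATAAA, the core of the TATA box, CCAAT, the box that the factor NF-Y binds, and GGAATG, the site of TEAD factors. These were searched on both strands together with the site of AP-1, which is TGANTCA, one form of the site of C/EBP factors, which is TTGCNNAA, and the direct repeat bound by PPAR with RXR. Ogn holds TATAAA on both strands in one overlapping run 222 to 229 bases before the start, and GGAATG 81 to 86 bases before it. Aspn holds TATAAA once on each strand and CCAAT on the other strand. Prelp holds CCAAT 11 to 15 bases before the start, and Fmod TTGCNNAA 118 to 125 bases before it. Omd, Ecm2, Bgn and Podn hold none of these letters in the window. Among 32851 promoters of the same length, 12.4% hold TATAAA, 33.8% CCAAT, 6.75% TGANTCA, 12.6% GGAATG, 9.56% TTGCNNAA and 0.0335% the PPAR and RXR repeat. Each match describes letters only. The promoters of the 4 neighbours were poor in G and C, at 42% for Ogn, 38.4% for Omd, 30% for Aspn and 40% for Ecm2, against a median of 52.4% over all promoters. Those of other members were at 51.2% for Fmod, 55.6% for Prelp, 64.4% for Bgn, and 78% and 64% for the pair of Podn starts. The table matched 8 of the 10 members; Dcn and Lum were not matched.

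Osteoglycin, a keratan sulfate proteoglycan that binds collagen fibrils, rose. Ogn (ENSMUSG00000021390) was at 75.8, 76.0, 80.8, 58.9 and 94.98 RPKM in KO 1, 4, 7, 8 and 17. Its WT values were 24.7, 30.4, 21.01, 27.3 and 34.1 RPKM in WT 2, 9, 19, 86 and 89. Every KO library lay above every WT library, with the lowest KO value well above the highest WT value. The means were 77.3 ± 12.9 RPKM in KO and 27.5 ± 5.0 RPKM in WT (SD, n = 5 each), a ratio of 2.81. On the log2(RPKM + 0.5) scale the difference was 1.48 (SE 0.15), the 20th highest of all tested genes. Between 865 and 4193 recovered reads stand behind each value.

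The other neighbours of Ogn did not pass the threshold. Omd, a keratan sulfate proteoglycan best known from bone and dentin, was the lowest member, at 0.507, 0.827, 0.681, 0.713 and 0.961 RPKM in KO 1, 4, 7, 8 and 17. Its WT values were 0.322, 0.701, 0.515, 0.578 and 0.946 RPKM in WT 2, 9, 19, 86 and 89, and the groups overlapped. With 8 to 26 reads per library behind these values and levels near the pseudocount, the log2 difference of 0.17 (SE 0.17) is imprecise. Aspn, which binds collagen and TGF-beta and carries no sugar chain of this kind, ranged from 3.198 to 5.47 RPKM in KO (median 4.30) and from 2.99 to 6.10 RPKM in WT (median 3.80). Its KO range lay inside the WT range, and its log2 difference of 0.04 (SE 0.19) turned negative under median-ratio scaling and quantile normalization. Ecm2, a matrix protein with leucine-rich repeats related to decorin, was at 4.56, 4.16, 4.73, 4.70 and 5.14 RPKM in KO 1, 4, 7, 8 and 17, and at 3.97, 3.98, 2.56, 4.35 and 3.89 RPKM in WT 2, 9, 19, 86 and 89. Of its KO libraries, 4 lay above all WT libraries, and only KO 4 lay within the WT range. The log2 difference of Ecm2 was 0.29 (SE 0.12), and 0.18 without WT 19, its lowest library.

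**Figure D1:**
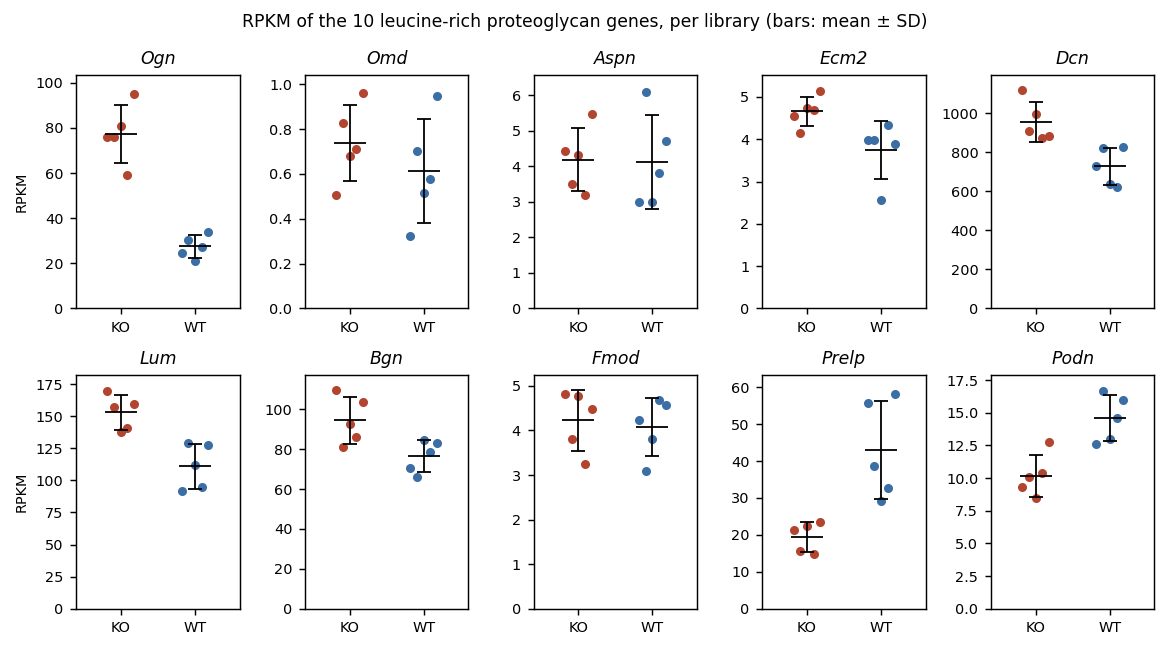
RPKM of each member (y axes, each from 0) in 5 KO and 5 WT libraries. Points are libraries in the order of their animal numbers and bars are the mean ± SD. Ogn, Dcn and Lum separate upwards in KO and Prelp downwards, while Omd, Aspn and Fmod overlap.

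Decorin and biglycan are the members with chondroitin or dermatan sulfate chains, and decorin also binds TGF-beta and the EGF receptor. Dcn was the most abundant member, at 1118, 910.5, 995, 874 and 885 RPKM in KO 1, 4, 7, 8 and 17. WT libraries held 732, 821, 637, 625 and 826 RPKM of Dcn in WT 2, 9, 19, 86 and 89. The groups did not overlap, but the gap between KO 8 and WT 89 was small and Dcn was not called, with a log2 difference of 0.40 (SE 0.12), although it was under quantile normalization and in the voom fit. Bgn, also known as a ligand of Toll-like receptors, was at 109, 81.0, 92.4, 85.9 and 104 RPKM in KO 1, 4, 7, 8 and 17, against 70.7, 66.0, 84.4, 78.6 and 83.2 RPKM in WT 2, 9, 19, 86 and 89. KO 4 lay within the WT range of Bgn and the other KO libraries lay above it. Its log2 difference was 0.30 (SE 0.10) and it was not called.

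Lumican, fibromodulin and PRELP belong, with osteomodulin, to one class by sequence. Lumican and fibromodulin carry keratan sulfate, while PRELP has a basic end that binds heparin and perlecan. Lum was at 169.6, 156.9, 137.6, 141.0 and 159.2 RPKM in KO 1, 4, 7, 8 and 17, and at 91.5, 129.2, 112.0, 94.9 and 127.2 RPKM in WT 2, 9, 19, 86 and 89. All KO values lay above all WT values, and Lum rose by 0.47 on the log2 scale (SE 0.11), a ratio of 1.38 between the means. The call was not stable, since Lum was called in only 8 of 20 alternatives and was lost under median-ratio scaling (log2 difference 0.38), quantile normalization (0.42) and no filter. It was also lost in 8 of the 10 fits without 1 library, all except those without WT 9 or WT 89, where the difference ran from 0.41 to 0.53 over all 10. Fmod ranged from 3.26 to 4.82 RPKM in KO (median 4.49) and from 3.09 to 4.69 RPKM in WT (median 4.23). The ranges of Fmod overlapped almost entirely, and its log2 difference of 0.05 (SE 0.13) turned negative under median-ratio scaling and quantile normalization.

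Prelp fell. It was at 21.4, 15.5, 22.4, 14.9 and 23.5 RPKM in KO 1, 4, 7, 8 and 17. WT libraries held 55.8, 38.8, 29.3, 32.6 and 58.2 RPKM of Prelp in WT 2, 9, 19, 86 and 89. Every KO library was below every WT library, and the WT libraries spread more widely, with WT 2 and WT 89 far above the other 3. Prelp averaged 19.5 ± 4.0 RPKM in KO and 42.9 ± 13.3 RPKM in WT libraries (SD, n = 5 each), a log2 difference of -1.09 (SE 0.21), the 153rd lowest of all tested genes. Its call was lost without KO 8 (log2 difference -0.998) and when the animals numbered under 20 alone were fitted (-1.04). The latter fit leaves out WT 86 and WT 89, while all KO animals are numbered under 20. Prelp lies beside Fmod on chromosome 1, and the ratio of Prelp to Fmod was 4.08 to 5.23 in KO against 6.96 to 13.2 in WT.

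Podn, a family member with more repeats that binds collagen and restrains smooth muscle growth in culture, also fell. It was at 9.29, 10.1, 8.48, 10.4 and 12.7 RPKM in KO 1, 4, 7, 8 and 17, against 12.6, 16.6, 13.02, 14.6 and 16.0 RPKM in WT 2, 9, 19, 86 and 89. KO 17 lay just above WT 2, and the other 4 KO libraries lay below all WT libraries. The log2 difference was -0.50 (SE 0.11). Podn was called in 12 of 20 alternatives and lost in 6 of the 10 fits without 1 library, where KO 1, 7 or 8 or WT 9, 86 or 89 was left out. The difference ran from -0.58 to -0.44 over all 10.

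Of the 10 members, 2 were called higher (Ogn and Lum) and 2 lower (Prelp and Podn), at a Benjamini-Hochberg adjusted p under 0.05 over all 17038 genes. Over all tested genes 4.00% were called higher and 1.95% lower, and 5.95% in either direction. The same contrast chose the members, so nothing is read from this count. In 3 members (Ogn, Dcn and Lum) all KO libraries lay above all WT libraries, as in 6.96% of all tested genes, and in 1 (Prelp) all lay below, as in 2.15%. The median log2 difference was 0.23 over the 4 neighbours, with a range of 0.04 to 1.48. Over the other 6 members it was 0.17, with a range of -1.09 to 0.47. The median of the neighbours includes Ogn, whose rise led to the choice of the set, beside Omd at 0.17, Aspn at 0.04 and Ecm2 at 0.29. The median over all tested genes was 0.09. Thus 1 of the 4 neighbours was called, Ogn alone, against 3 of the other 6, and the called members differed in direction. No test was made of that difference, for the same reason.

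**Figure D2:**
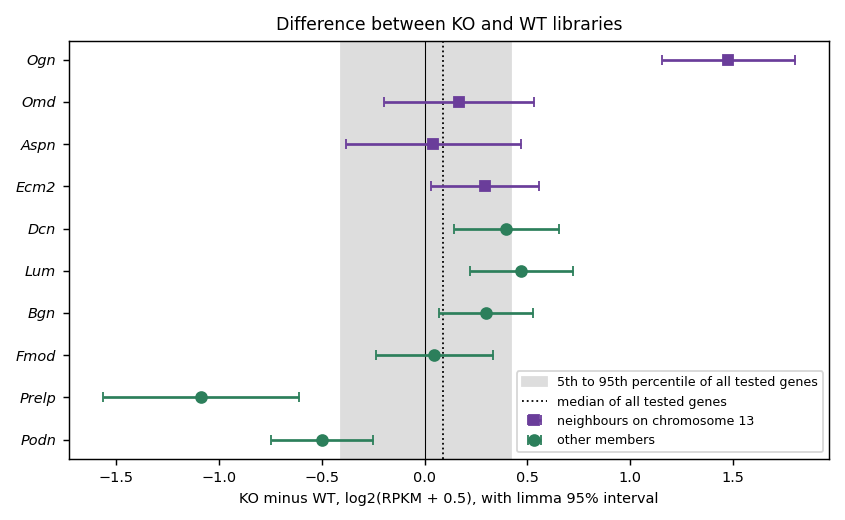
KO minus WT difference of each member on the log2(RPKM + 0.5) scale (x axis) with limma's 95% interval, for the neighbours on chromosome 13 (squares) and the other members (circles). The dotted line is the median of all 17038 tested genes (0.09) and the grey band their 5th to 95th percentile (-0.41 to 0.42); Ogn stands alone on the right at 1.48 and Prelp on the left at -1.09.

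Ratios of members within a library do not depend on scaling by 1 factor per library, though quantile normalization can change them. Ogn was 6.78%, 8.34%, 8.12%, 6.74% and 10.7% of Dcn in KO 1, 4, 7, 8 and 17, and 3.38%, 3.70%, 3.30%, 4.37% and 4.12% of Dcn in WT 2, 9, 19, 86 and 89. The groups did not overlap, so Ogn was higher relative to decorin as well as in RPKM. Ogn over Prelp was 3.55, 4.90, 3.61, 3.96 and 4.05 in KO 1, 4, 7, 8 and 17, against 0.443, 0.784, 0.717, 0.836 and 0.586 in WT 2, 9, 19, 86 and 89. In each KO library Ogn was thus above Prelp, and in each WT library below it. Dcn over Lum overlapped, at 5.56 to 7.23 in KO and 5.69 to 8.00 in WT.

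**Figure D3:**
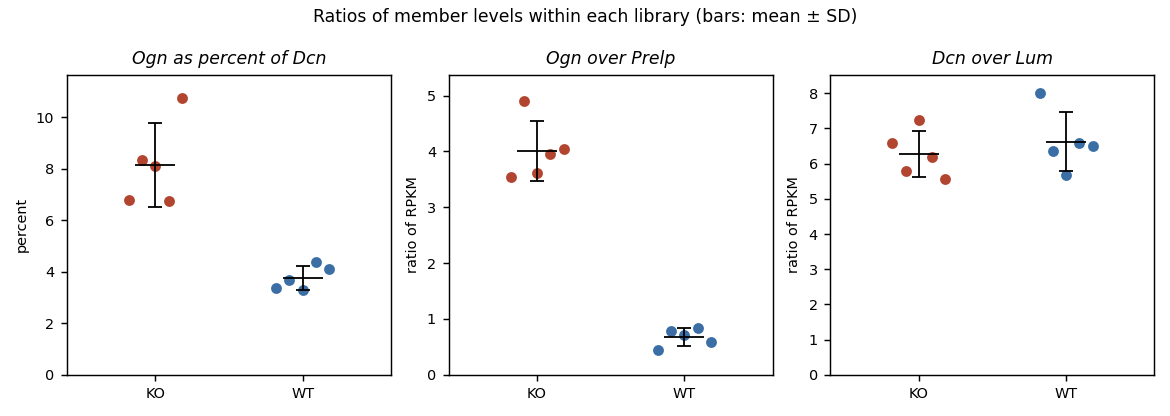
Ogn as a percentage of Dcn, Ogn over Prelp and Dcn over Lum (y axes, from 0) within each of 5 KO and 5 WT libraries, from RPKM. Points are libraries and bars the mean ± SD; the first pair of ratios separates the groups (Ogn over Prelp 3.55 to 4.90 in KO, 0.443 to 0.836 in WT) and Dcn over Lum overlaps.

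The 10 members summed to 1197 to 1518 RPKM in KO and 886 to 1159 RPKM in WT, and these ranges did not overlap. Dcn made up 68.3% to 73.6% of the sum in KO and 70.3% to 73.6% in WT, so the sum mostly follows decorin. Ogn took 4.92% to 7.33% of it in KO and 2.32% to 3.08% in WT, and Prelp 1.23% to 1.81% in KO and 3.23% to 5.58% in WT. By RPKM, the order in KO was Dcn, Lum, Bgn, Ogn, Prelp, Podn, Ecm2, Fmod, Aspn and Omd. Neighbours in that order whose ranges overlapped were Bgn and Ogn, Ecm2 and Fmod, and Fmod and Aspn. In WT the order was Dcn, Lum, Bgn, Prelp, Ogn, Podn, Aspn, Fmod, Ecm2 and Omd, with overlap between Prelp and Ogn, Aspn and Fmod, and Fmod and Ecm2. Ogn and Prelp therefore changed places.

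Among KO libraries, KO 17 held the highest value for 6 of the 10 members (Ogn, Omd, Aspn, Ecm2, Prelp and Podn) and KO 1 for the other 4. KO 8 held the lowest value for 5 (Ogn, Aspn, Dcn, Fmod and Prelp). Among WT libraries, WT 89 held the highest value for 4 members (Ogn, Omd, Dcn and Prelp) and the lowest for 0, while WT 2 held the lowest for 4 (Omd, Aspn, Lum and Podn). The coefficient of variation in KO ran from 7.58% for Ecm2 to 23.0% for Omd, and in WT from 10.4% for Bgn to 37.8% for Omd. KO 17 and WT 89 thus held the highest level of both Ogn and Prelp in their group, although these genes moved apart between groups.

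The 10 genes have 28 transcripts in a separate deposited table, of which 22 passed the same filter. Only that of Ogn was called. ENSMUST00000021822, the single listed transcript of Ogn, averaged 83.8 ± 16.4 RPKM in KO libraries and 31.8 ± 5.4 RPKM in WT (SD, n = 5 each), a log2 difference of 1.38 (SE 0.16). Over all 44475 transcripts tested 0.0922% were called higher, 0.452% lower and 0.544% in either direction. The coding transcript of Prelp, ENSMUST00000048432, was at 16.4 ± 3.6 RPKM in KO, against 36.6 ± 12.6 RPKM in WT, a log2 difference of -1.09 (SE 0.24), and was not called. Nor was that of Lum, ENSMUST00000038160, with a log2 difference of 0.32 (SE 0.12).

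Dcn has a pair of coding transcripts. ENSMUST00000105287 was at 812 ± 101 RPKM in KO, against 665 ± 87 RPKM in WT, and ENSMUST00000163448 at 209 ± 20 RPKM in KO, against 192 ± 20 RPKM in WT (SD, n = 5 each). The second made up 19.1% to 22.6% of the Dcn sum in KO and 21.4% to 23.8% in WT, and the ranges overlapped. Among the 8 transcripts of Bgn, the coding ENSMUST00000033741 was at 190 ± 26 RPKM in KO, against 153 ± 16 RPKM in WT. That is above the transcript of Lum, at 149 ± 16 RPKM in KO, against 119 ± 18 RPKM in WT, with overlapping ranges in each group, whereas Bgn lay below Lum in the gene table, where its values are scaled to a length of 6099 bases. The order of Lum and Bgn therefore depends on the table.

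Podn was split over 8 transcripts, of which 7 passed the filter and limma called 0 in either direction, with 2 lower at an unadjusted p under 0.05. The largest, ENSMUST00000106708, was at 5.03 ± 1.25 RPKM in KO, against 9.58 ± 2.43 RPKM in WT libraries (SD, n = 5 each), a log2 difference of -0.86 (SE 0.22), and made up 21.03% to 42.3% of the Podn sum in KO and 25.1% to 63.0% in WT. ENSMUST00000044248 went the other way in its values, at 1.74 to 6.66 RPKM in KO and 0 to 4.63 RPKM in WT, with overlap. A second coding transcript of Fmod, ENSMUST00000162779, was at 0.124 to 0.901 RPKM in KO and listed at 0 in all 5 WT libraries. It did not pass the filter, and a 0 in this table can be a failed estimate. ENSMUST00000146851 of Podn and ENSMUST00000169489 of Bgn were listed at 0 in every library.

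Genes beside Ogn and its neighbours, beside Dcn and Lum, and beside Fmod and Prelp were examined by order along the chromosome, and those beside Bgn and Podn were not. Of 31 such genes, 16 passed the filter and limma called 0 in either direction, with 4 higher at an unadjusted p under 0.05. Chil1, a chitinase-like gene near Fmod, was called higher with array weights, without KO 7 and in the voom fit, with a log2 difference of 0.54 (SE 0.15, adjusted p = 0.0639) in the fit of all libraries. Cenpp, a centromere gene that spans the Ogn neighbours, was at 1.48 ± 0.37 RPKM in KO, against 1.22 ± 0.20 RPKM in WT, a log2 difference of 0.20 (SE 0.14, adjusted p = 0.432). Nol8, a nucleolar protein gene on the other side of Ogn, was at 5.35 ± 0.18 RPKM in KO, against 4.81 ± 0.39 RPKM in WT (0.14, SE 0.06, adjusted p = 0.198). None of the tested genes around Ogn was thus called with it in any of these fits. Btg1, beside Dcn and Lum, differed by 0.10 (SE 0.08). Optc and Btg2, on either side of Fmod and Prelp, differed by 0.06 (SE 0.12) and 0.19 (SE 0.13). Keratocan (Kera) and epiphycan (Epyc), the family members beside Lum, were near 0 in both groups, with Epyc at 0.197 ± 0.101 RPKM in KO, against 0.211 ± 0.041 RPKM in WT.

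The genes whose profile over the 10 libraries lay nearest to that of Ogn were found by the root mean square distance of log2(RPKM + 0.5), each gene taken relative to its WT mean. Taken so, the distance largely restates the KO minus WT difference for which Ogn was chosen, and it is given as a description. The nearest 5 had log2 differences of 1.33 to 1.64, near that of Ogn. They were Plppr4 (a phosphatase-related membrane protein, distance 0.204), Kng2 (kininogen, 0.207), C6 (a complement component, 0.233), Folh1 (a glutamate carboxypeptidase, 0.255) and Itih4 (an inter-alpha-trypsin inhibitor chain, 0.410). The median over all tested genes was 1.03. Plppr4 was at 2.02 ± 0.26 RPKM in KO, against 0.313 ± 0.129 RPKM in WT (SD, n = 5 each). It passed the filter through its KO libraries alone, so it had to differ, and its log2 difference ran from 1.20 to 2.82 over the 15 alternatives in which it was tested. Kng2 was at 11.6 ± 1.1 RPKM in KO, against 3.58 ± 0.55 RPKM in WT, and C6 at 18.4 ± 1.7 RPKM in KO, against 6.78 ± 0.56 RPKM in WT (SD, n = 5 each). Among the other members, whose differences were smaller than that of Ogn or opposite to it, Lum came nearest at 0.742, in place 204, then Dcn at 0.791 in place 417, and Ecm2 at 0.859 in place 1125. Aspn and Fmod lay near the median at 1.03 and 1.04, and Prelp was at 1.83.

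Genes that build, bind and cleave these proteoglycans were taken from 7 lists. Of 108 tested, 12 were called higher and 5 lower, with a median log2 difference of 0.13. Of all 17038 tested genes, 4.00% were called higher and 1.95% lower, with a median of 0.09. The lists were chosen with earlier results of these data known, so nothing is read from these counts against that share. Without KO 1 or KO 17, 7 were called higher and 2 lower. Under median-ratio scaling the split of the listed genes was 5 higher and 5 lower. Over all 17038 tested genes that scaling gave 102 higher and 414 lower, against 681 higher and 332 lower with the values as deposited. The enzymes of keratan sulfate, the chain carried by Lum, Fmod, Ogn and Omd, held the largest difference. Chst1, the sulfotransferase that adds sulfate to galactose in keratan sulfate, was at 10.5 ± 1.5 RPKM in KO, against 44.5 ± 5.9 RPKM in WT libraries (SD, n = 5 each), and fell by 2.04 on the log2 scale (SE 0.12, adjusted p = 1.04e-05). Its groups did not overlap, and it was called in all 20 alternatives. Fut8, which adds core fucose to N-linked chains, rose by 0.40 (SE 0.08, adjusted p = 0.0224), and the other 6 tested genes of 8 were not called. Adipocyte markers fell beside Chst1, as given above, and their part in it was not tested.

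In chondroitin and dermatan sulfate synthesis 1 of 28 tested genes was called, and it was higher. The voom fit called 4 higher and 0 lower. At an unadjusted p under 0.05, 8 were higher and 0 lower, but the share of all genes at that cut is not given. Csgalnact2, which starts the chondroitin chain, was at 9.36 ± 0.65 RPKM in KO, against 7.27 ± 0.61 RPKM in WT (log2 0.34, SE 0.07, adjusted p = 0.0231). The most abundant genes of that list, B3gat3 of the linker and Dse, the epimerase that makes dermatan sulfate, differed by 0.16 (SE 0.09) and 0.27 (SE 0.07) and were not called, although Dse was called in 4 of 20 alternatives. Other family genes had 5 of 8 tested, of which 0 were called by limma or voom in either direction, also 0 at an unadjusted p under 0.05. Tsku and Chad, the most abundant of these, differed by -0.21 (SE 0.18) and 0.08 (SE 0.19), and Chad changed sign when animals numbered under 20 alone were fitted.

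Among collagens and fibril partners, 2 of 17 tested were called, both higher. Dermatopontin (Dpt), a small matrix protein that binds decorin, was at 176 ± 28 RPKM in KO, against 88.4 ± 10.7 RPKM in WT libraries (SD, n = 5 each), and it rose by 0.98 (SE 0.12, adjusted p = 0.00164). Col12a1, a fibril-associated collagen, rose by 0.61 (SE 0.10, adjusted p = 0.00977). Of 20 tested ligands and receptors, 3 were called higher and 2 lower. Egfr, a receptor of decorin, rose by 0.45 (SE 0.08, adjusted p = 0.0113), and Tgfb3, a TGF-beta ligand, by 0.45 (SE 0.11, adjusted p = 0.0444). Tlr4, which binds biglycan, was the third called higher. Vegfa fell by 0.64 (SE 0.15, adjusted p = 0.0344) and its receptor Kdr by 0.55 (SE 0.13, adjusted p = 0.0375), with overlapping groups in both.

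Among proteases and their enhancers, 3 of 12 tested were called, all higher. Mmp3, a matrix metalloprotease, was at 4.25 ± 1.24 RPKM in KO, against 2.25 ± 0.21 RPKM in WT (log2 0.75, SE 0.17, adjusted p = 0.0318). The procollagen proteinase enhancers Pcolce2 and Pcolce rose by 0.61 (SE 0.15, adjusted p = 0.0413) and 0.42 (SE 0.07, adjusted p = 0.00631). Other proteoglycan core proteins had 2 of 18 called higher and 2 lower. Srgn, the core protein of secretory granules in blood cells, rose by 0.83 (SE 0.14, adjusted p = 0.00769), and Vcan, versican, by 0.42 (SE 0.10, adjusted p = 0.0384). Cspg4 fell by 0.79 (SE 0.12, adjusted p = 0.00427). It is also 1 of the 2 called among the 12 smooth muscle and pericyte markers, so nothing is read about pericytes. Cspg5 fell by 0.58 (SE 0.14, adjusted p = 0.0366), at 0.436 ± 0.127 RPKM in KO, against 0.893 ± 0.166 RPKM in WT. These levels are near the filter and the pseudocount. The log2 difference of Cspg5 ran from -1.06 to -0.40 over 19 alternatives, of which 9 called it. Adjusted p-values are from limma over all genes. Chst1, Dpt and Cspg4 were called in all 20 alternatives. Others lost their calls under some settings. Csgalnact2, Fut8, Tgfb3, Mmp3, Pcolce2 and Vcan lost their calls under median-ratio scaling and quantile normalization, where their log2 differences were 0.26 (Csgalnact2) to 0.69 (Mmp3). Col12a1, Egfr, Pcolce and Srgn lost theirs only when animals numbered under 20 alone were fitted, with differences of 0.38 (Pcolce) to 0.75 (Srgn). Csgalnact2 was also lost without KO 17 or WT 19, and Fut8 without KO 1, KO 8 or WT 86, while over all 10 fits without 1 library their differences ran from 0.31 to 0.37 and from 0.34 to 0.46. Of the 10 fits without 1 library, Kdr and Pcolce2 were called only in that without KO 8, Tgfb3 in those without KO 7 or WT 86, Mmp3 in those without KO 7 or KO 8, Vcan in those without KO 4 or WT 19, Vegfa in those without KO 7, KO 8 or WT 89, and Cspg5 in those without KO 7, KO 8 or WT 2.

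**Figure D4:**
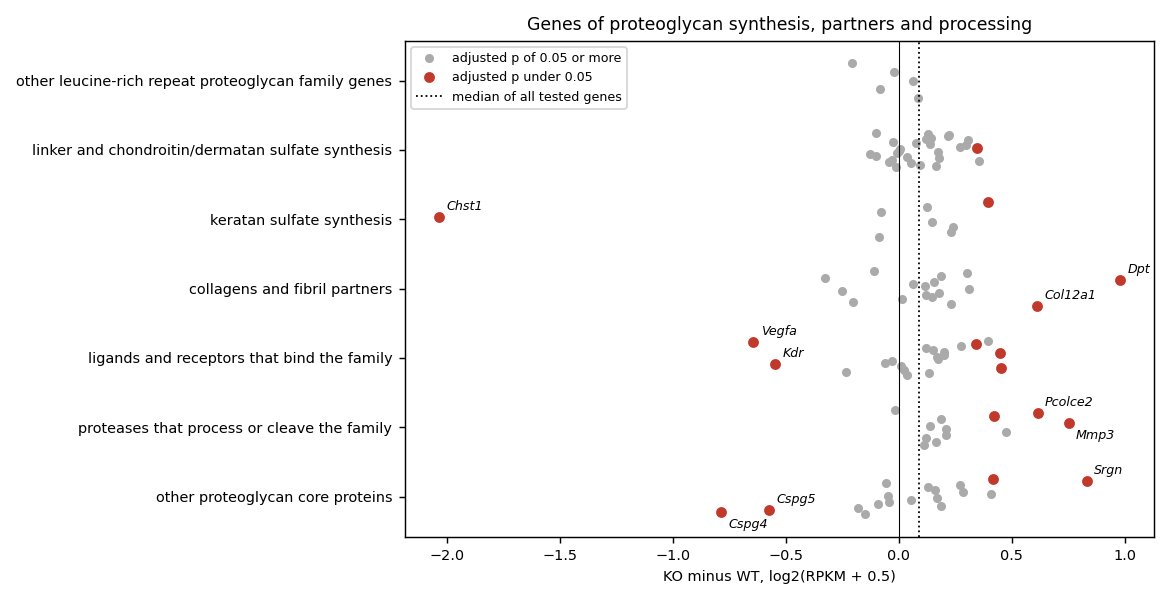
KO minus WT difference on the log2(RPKM + 0.5) scale (x axis) of the 108 tested genes in 7 lists of the family's synthesis, partners and processing (rows; Dpt and others as labelled). Red points passed an adjusted p under 0.05 by limma; Chst1 lies alone at -2.04, and the dotted line is the median of all tested genes at 0.09.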

How the data were processed

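The values analysed are RPKM (reads scaled to gene length and library size), which the authors deposited as a gene table and a transcript table for 5 KO and 5 WT libraries, grouped by the genotype and number in their titles. Per the submitters' processing notes, bcl2fastq, STAR, Subread and featureCounts were used. No source used here gives the genome build, the annotation, the filters or the tool behind the transcript values, and the unit of the transcript table rests on its name. Whole reads were worked back from gene RPKM. The size of each library was estimated, and for each gene a length giving whole reads in all libraries was sought. A length was found for 100% of 25122 genes (tolerance 0.001 reads), with 14444257 to 20183632 reads per library. It equalled the summed exon length of GENCODE M21 for 16193 of them, and elsewhere it was the smallest length that fitted. These recovered reads served for depth and for a voom fit with limma, which called 852 genes higher and 377 lower.

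Genes with at least 0.5 RPKM in at least 5 libraries were fitted as log2(RPKM + 0.5) with limma 3.58.1 in R 4.3.3 (eBayes with trend and robust, statmod 1.5.0), 2-sided, adjusted by Benjamini-Hochberg over all tested genes, and called under 0.05. Fold changes on this scale understate those of low genes. SE are limma's moderated SE. Transcripts were fitted alike. The fits were tested on simulated reads drawn independently for each gene, with no shift shared by all genes, and no result here rests on that test. The limma p-values set each difference against the spread between these animals within groups, moderated across genes. Promoters were from RefSeq, and its gene table was used for gene order only. The members, gene lists, markers and motifs were chosen with earlier results of these data known. Named genes were the members, Med19, the 5 nearest profiles to Ogn (leaving out predicted genes and pseudogenes), up to 4 called genes per list with the largest difference or the 2 most abundant where fewer than 2 were called, the tested genes beside each group, and the 2 most abundant markers per cell type. Cd55, Cd24a, Tlr4, Chil1, Kera and Epyc were named after their values were seen. Ccn2 and Ccn4 were looked up under their older names Ctgf and Wisp1. Alternatives changed the pseudocount (0.1, 1), the filter (none, 1 RPKM), the scaling (median-ratio, quantile) and the variance model (eBayes with neither trend nor robust, and array weights). Others were each library left out, animals numbered under 20 alone, and voom on recovered reads. The fit of animals numbered under 20 leaves out WT 86 and WT 89. All KO animals are numbered under 20, so the higher numbers occur in WT alone, and the labels do not say what the numbers stand for.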

Additional observations from a re-analysis of the deposited data

Results flagged for a closer look

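In 5 libraries of a group, a value was singled out when its gap to the nearest of the other 4 exceeded 0.71 of the group's range, which chance does in about 1 group in 20; 7 of 142 groups met this. Ecm2 was at 2.56 RPKM in WT 19, against 3.89 to 4.35 RPKM in the other WT libraries. Bgn transcript ENSMUST00000133394 was at 3.10 RPKM in KO 1, against 3.85 to 4.05 RPKM in the other KO libraries. Podn transcript ENSMUST00000106709 was at 4.21 RPKM in WT 9, against 1.62 to 2.36 RPKM in the other WT libraries. C6 was at 15.5 RPKM in KO 8, against 18.8 to 19.99 RPKM in the other KO libraries, and Kdr at 18.1 RPKM in KO 8, against 10.7 to 12.5 RPKM. Tgfb3 was at 12.4 RPKM in WT 86, against 9.59 to 10.1 RPKM in the other WT libraries, and Btg2 at 33.3 RPKM in WT 86, against 19.7 to 22.2 RPKM.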

How the results depend on the processing

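The log2 difference of Ogn, given as a description since this contrast chose the genes, was 1.39 to 1.59 over 20 alternatives. Of the members, the values as deposited gave 2 higher and 2 lower. No filter gave 1 higher and 1 lower, median-ratio scaling 1 higher, and animals numbered under 20 alone 1 higher and 0 lower; leaving out 1 library gave 1 to 2 higher and 0 to 2 lower. Over all genes the calls were 292 higher with no filter, 102 with median-ratio scaling and 149 with quantile normalization, 72 higher and 139 lower in animals numbered under 20, and 188 to 689 higher and 206 to 314 lower without 1 library. Listed pathway genes numbered 5 higher with median-ratio scaling, 6 higher with quantile normalization, 2 lower with no filter, and 2 higher and 2 lower in animals numbered under 20, with 7 to 11 higher and 2 to 5 lower without 1 library. Adipocyte markers called lower numbered 7 in animals numbered under 20. Fibroblast and adipose progenitor markers called higher numbered 1 with median-ratio scaling, with quantile normalization and in animals numbered under 20; the 1 called lower became 0 with quantile normalization, no filter and animals numbered under 20. Without 1 library, 1 to 3 of them were higher and 0 to 1 lower. Genes beside the members had 1 called higher with array weights and with voom on recovered reads, and 0 to 1 without 1 library.

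The median log2 difference of the 4 neighbours was 0.34 in animals numbered under 20 and 0.33 with voom. Signs reversed for Aspn (-0.040 with median-ratio scaling, -0.022 with quantile normalization, -0.050 to 0.18 without 1 library) and Fmod (-0.036 and -0.024 in the same settings, -0.038 to 0.13 without 1 library). They also reversed for Med19 (-0.067 and -0.046 in the same settings, -0.063 in animals numbered under 20, -0.037 to 0.083 without 1 library) and Chad (-0.057 in animals numbered under 20, -0.072 to 0.18 without 1 library). Of the 5 profiles nearest to Ogn, 3 stayed with a pseudocount of 0.1 and 4 with median-ratio scaling. Folh1 lost its call without KO 1 and without WT 86. The cause of these changes was not tested, except that fits without a library hold fewer samples. No paired analysis was possible because the groups share no animal number. Omd rests on 8 to 26 reads per library, so a difference in it was not detectable at this depth unless large, and transcript values carry an unknown error of estimation.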
